A study of Homo sapiens with 6 samples.

Results

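A set of 10 genes that govern passage through G1 was followed in NCI-N87, an established line from a human gastric cancer: the D-type cyclins CCND1 and CCND3, their kinases CDK4 and CDK6, the E-type cyclins CCNE1 and CCNE2, the inhibitors CDKN2A and CDKN1B, and RB1 and E2F1. They were chosen by gene name from 58735 annotated genes, and 10 of the 10 had enough counts to be among the 15726 genes tested. RNA was sequenced from 3 libraries of cells given the plasmid PLVX-IRES-Puro-EGLN3 and from 3 control libraries given empty PLVX-IRES-Puro. Cells of both groups had the plasmid for 1 day and puromycin for 7 days, but 5 days with the plasmid are given for EGLN3 replicate 3. EGLN3 is a prolyl hydroxylase of the pathway that senses oxygen, and the series title asks about its effect on proliferation. The plasmid expresses EGLN3 at a raised level in a drug-selected pool of 1 line, and the labels do not say that replicates were separate cultures, so p-values measure only how these libraries vary, and that variation may be technical.

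In G1, growth signals raise D-type cyclins, which bind CDK4 and CDK6 and start the phosphorylation of RB. Phosphorylated RB releases E2F factors, which switch on CCNE1, CCNE2 and genes of DNA replication, and cyclin E with CDK2 completes the phosphorylation. CDKN2A encodes the INK4 inhibitor of CDK4 and CDK6 and, from another first exon, ARF, which stabilises p53, while CDKN1B encodes the inhibitor p27. In gastric cancers, amplification of cyclin E and of ERBB2 and silencing of CDKN2A are well known, and NCI-N87 carries many copies of ERBB2.

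Library totals ran from 15157265 to 16767383 counts. EGLN3 stood at 65.2, 221 and 229 FPKM in EGLN3 replicates 1 to 3, against 0.0777, 0.0946 and 0.0761 FPKM in control replicates 1 to 3, where FPKM is the deposited count per kilobase of gene, scaled for library size. Of 9 markers of gastric epithelium and this line, 7 were above 1 FPKM in every library, and CLDN18 and TFF1 were not. Markers of fibroblasts, leukocytes and endothelium were near 0, with 0 of 6, 0 of 4 and 0 of 3 above 1 FPKM in every library. The main axis of variation (first principal component, 70% of the variance) did not follow the plasmid: it placed EGLN3 replicates 1 to 3 at 59.4, -23.3 and -45.9 and control replicates 1 to 3 at -36.2, 11.5 and 34.4.

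CDK4 was the member that stood apart between the groups. It was lower in every library with EGLN3 than in every control library, at 0.816 times the control level. Of all tested genes, 3.62% were lower without overlap and 6.26% did not overlap in either direction. The other 9 members overlapped between the groups, and 0 of 10 members passed the test over all genes, in which 0.00636% of genes were called (edgeR quasi-likelihood test, adjusted p under 0.05), EGLN3 itself. In 8 of the 10 members the libraries split by their side of the first axis of the data, as in 57.5% of all tested genes. CCND3, CCNE1, CDKN2A and E2F1 were high on one side of it and CCND1, CDK6, CCNE2 and RB1 were high on the other.

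Promoters of 2 genes are shown as description only: that of CDK4, whose groups did not overlap, and that of E2F1, which encodes the factor that RB restrains. No difference between the groups was traced to them. Each is the RefSeq window of 250 bases before and 50 bases from the annotated start on GRCh38.p14, printed in the direction of transcription. Capitals mark the E-box CACGTG, the core site bound by MYC and related factors, and TTTNGCGC, a form of the E2F site. Both were searched on both strands, with no overlap between matches of the 2 motifs. Other forms of the E2F site were not searched.
CDK4, chr12:57752261-57752560, minus strand: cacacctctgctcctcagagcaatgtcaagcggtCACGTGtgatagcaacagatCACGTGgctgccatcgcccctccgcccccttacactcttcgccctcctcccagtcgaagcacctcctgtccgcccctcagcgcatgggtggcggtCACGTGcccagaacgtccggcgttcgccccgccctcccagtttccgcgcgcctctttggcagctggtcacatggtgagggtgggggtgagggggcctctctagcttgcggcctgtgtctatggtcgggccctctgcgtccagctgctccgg
E2F1, chr20:33686336-33686635, minus strand: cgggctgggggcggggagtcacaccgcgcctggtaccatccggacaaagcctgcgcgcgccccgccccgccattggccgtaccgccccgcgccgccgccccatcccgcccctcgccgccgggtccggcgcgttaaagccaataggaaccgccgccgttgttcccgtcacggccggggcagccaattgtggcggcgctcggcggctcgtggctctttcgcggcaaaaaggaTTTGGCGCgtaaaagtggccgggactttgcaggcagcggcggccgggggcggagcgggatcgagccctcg

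The CDK4 window held 3 E-boxes, whose first bases lie at -216, -196 and -101, counted from the start site as 0. Among 35116 promoter windows of the same length, 7.26% held an E-box and 0.094%, or 33 windows, held 3 or more, a number taken from the CDK4 window itself, so this share is a description only. The E2F1 window held 1 match to the E2F letters, with its first base at -20, and 1.79% of all windows held one. Windows of 8 of the 10 members were searched, 12 windows in all. CCND1 had no window in the source, and windows on chromosome 8, where CCNE2 lies, were left out of the search. The only other match in the 12 windows to either motif was an E-box at 30 in 1 of the 2 CDK6 windows. The RB1 window surrounds a start site at 48476450, inside the gene, whose span begins at 48303726. The CDK4 start site, at 57752310 on the minus strand, is also inside its gene, whose span begins at 57756013 on that strand. The same holds for CDKN1B, at 12717368 in a span from 12715058. For CCND3 the outermost start site is at 42048688, in a minus-strand span from 42050357. Sequence at the beginning of these spans was not searched. A match is a string of letters and not a measured binding site. RNA of MYC, which encodes a factor that binds the E-box among others, was at 92.6 ± 3.25 FPKM with EGLN3. It was at 92.4 ± 6.26 FPKM in controls (SD, n = 3 each), a log2 fold change of 0.00 (SE 0.12). Protein and binding of MYC were not measured, and its part in the CDK4 values was not tested.

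Cyclin D1 was the most abundant member by mean FPKM and showed no measurable difference between groups. CCND1 (ENSG00000110092; chromosome 11, 69641087 to 69654474, plus strand, GRCh38) was at 80.7, 99.4 and 108 FPKM with EGLN3, against 107, 94.4 and 88.8 FPKM in controls. The groups overlapped, with the lowest value in EGLN3 replicate 1 and the highest in EGLN3 replicate 3. Its log2 fold change was -0.01 (SE 0.17; edgeR, adjusted p = 1), with a 95% interval of 0.754 to 1.3 times the control level.

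Cyclin D3 was below cyclin D1 in every library in transcripts per length, and the third D-type cyclin was close to absent. CCND3 (ENSG00000112576; chromosome 6, 41934933 to 42050357, minus strand) was at 15.9, 11.3 and 9.77 FPKM with EGLN3, against 12.4, 15 and 16.8 FPKM in controls. EGLN3 replicates 2 and 3 were below every control and EGLN3 replicate 1 was above 2 of them. The log2 fold change was -0.26 (SE 0.22; edgeR, adjusted p = 1), with a 95% interval from -0.78 to 0.25. The ratio of CCND1 to CCND3 in FPKM was 5.07, 8.77 and 11.1 with EGLN3, against 8.62, 6.28 and 5.28 in controls. CCND2 had 2 counts in EGLN3 replicate 2 and 0 in the other 5 libraries.

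CDK4, the main catalytic partner of D-type cyclins in many epithelia, was at 28, 27.1 and 26.8 FPKM with EGLN3, against 33.2, 35.2 and 31.7 FPKM in controls. The highest EGLN3 library lay below the lowest control. The 3 EGLN3 libraries differed among themselves by no more than 1.03 times in CPM (counts scaled to library size with TMM factors), the narrowest group of any member. The log2 fold change was -0.29 (SE 0.12), a level of 0.816 times the control with a 95% interval of 0.674 to 0.987 (edgeR, unadjusted p = 0.04, adjusted p = 1). CDK4 was 1 of the 10 members with an unadjusted p under 0.05, where 1.11% of all tested genes had one, and 1 of 10 lower without overlap, where 3.62% of all tested genes were; 0 of 10 were higher without overlap, against 2.64% of all tested genes. In fits that left out 1 library its log2 fold change ran from -0.33 to -0.24 and its unadjusted p from 0.045 to 0.17. The unadjusted p was 0.12 with no filter on low counts, 0.19 with the replicate number as a block and 0.062 with GC and length trends removed.

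CDK4 (ENSG00000135446; chromosome 12, 57747727 to 57756013, minus strand) shares 1369 bp of its annotated exons, 43.21% of them, with TSPAN31 on the opposite strand. The sources used here do not say whether counting used strand, and without strand the reads of the shared exons cannot be told apart. TSPAN31, a tetraspanin, was at 4.42, 4.35 and 4.22 FPKM with EGLN3, against 4.01, 4.9 and 4.75 FPKM in controls. These groups overlapped, with a log2 fold change of -0.08 (SE 0.13).

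CDK6, the other kinase of D-type cyclins, varied far more between libraries than CDK4. It was at 4.21, 8.22 and 11.2 FPKM with EGLN3, against 9.46, 5.49 and 5.05 FPKM in controls, so EGLN3 libraries held both the lowest and the highest value. The log2 fold change was 0.24 (SE 0.40; edgeR, adjusted p = 1), with a 95% interval of 0.603 to 2.3 times the control level. The FPKM ratio of CDK4 to CDK6 was 6.66, 3.29 and 2.4 with EGLN3, against 3.51, 6.41 and 6.27 in controls. CDK4 was above CDK6 in all 6 libraries. CDK6 (ENSG00000105810; chromosome 7, 92604921 to 92836594, minus strand) has the longest exon sum of the members, 12260 bp.

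**Figure D1:**
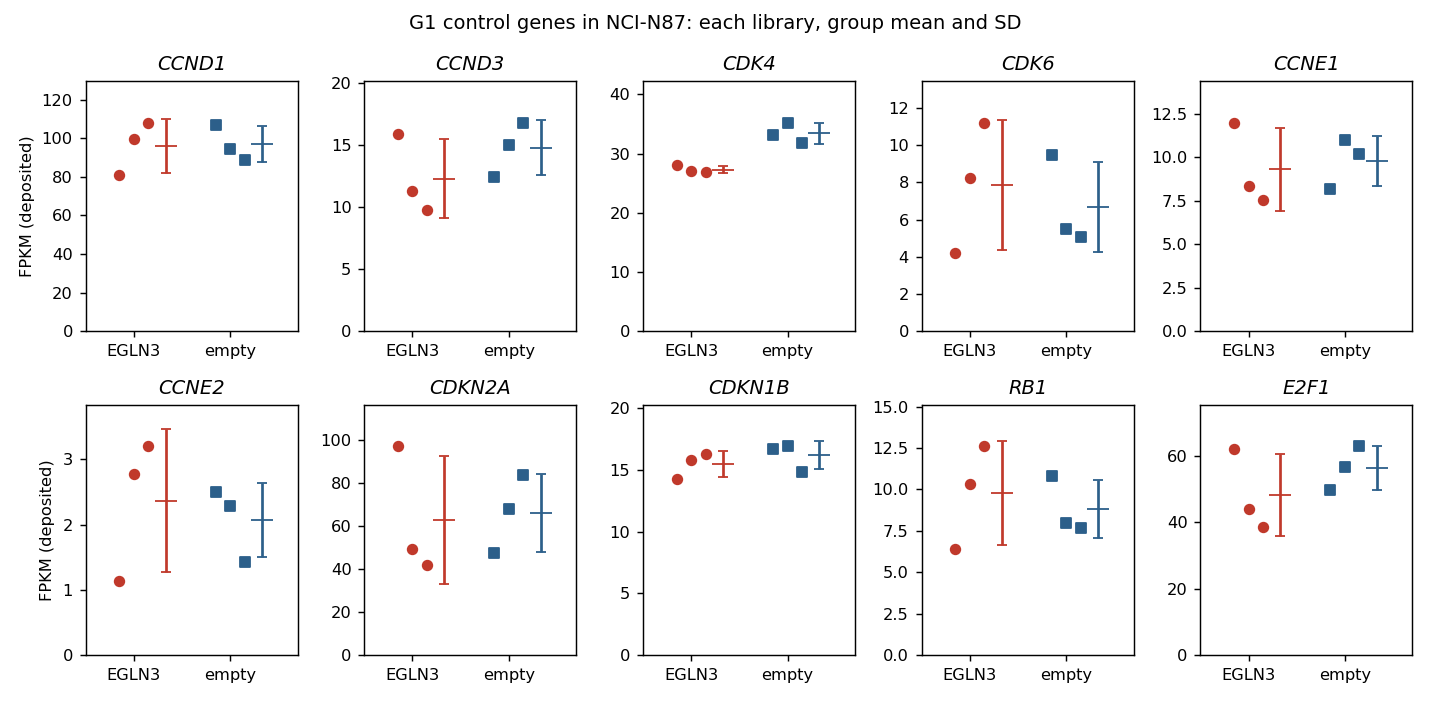
Deposited FPKM of the 10 genes in each library, with EGLN3 libraries as red circles on the left, empty-vector libraries as blue squares on the right, and the group mean and SD beside the points (n = 3 each). CDK4 is the panel in which the groups do not overlap, at 26.8 to 28 FPKM with EGLN3 and 31.7 to 35.2 FPKM in controls.

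The E-type cyclins moved in opposite ways across the libraries. CCNE1 (ENSG00000105173; chromosome 19, 29811898 to 29824308, plus strand) was at 12, 8.35 and 7.54 FPKM with EGLN3, against 8.19, 11 and 10.2 FPKM in controls. EGLN3 replicate 1 was the highest of the 6 libraries and EGLN3 replicate 3 the lowest. It had a log2 fold change of -0.08 (SE 0.22; edgeR, adjusted p = 1), with a 95% interval from -0.59 to 0.44.

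CCNE2 was the least abundant member, at 1.14, 2.77 and 3.2 FPKM with EGLN3 and 2.5, 2.29 and 1.43 FPKM in controls. It rests on 76 to 229 counts per library, the fewest of the 10, and its order of libraries was nearly the reverse of that of CCNE1. Its log2 fold change was 0.19 (SE 0.41; edgeR, adjusted p = 1), with a 95% interval from -0.79 to 1.17. CCNE1 exceeded CCNE2 in FPKM by 10.6, 3.02 and 2.36 times with EGLN3, against 3.28, 4.8 and 7.17 times in controls. CCNE2 (ENSG00000175305) lies on chromosome 8, minus strand, and shares 1629 bp of its exons, 37.05% of them, with INTS8 on the opposite strand. INTS8, a subunit of the Integrator complex, was also lowest in EGLN3 replicate 1, at 4.79, 7.8 and 7.89 FPKM with EGLN3 and 7.3, 6.75 and 5.68 FPKM in controls. The part of such shared reads in the CCNE2 values was not tested.

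Of the inhibitors, CDKN2A was abundant and uneven between libraries, and CDKN1B was the steadiest member. CDKN2A (ENSG00000147889; chromosome 9, 21967753 to 21995301, minus strand) was at 97.2, 49.5 and 41.9 FPKM with EGLN3, against 47.5, 67.8 and 83.7 FPKM in controls. EGLN3 replicate 1 was the highest library and EGLN3 replicate 3 the lowest, and the spread within each group was wider than the difference between the group means, 62.9 ± 30 FPKM with EGLN3 and 66.3 ± 18.1 FPKM in controls (SD, n = 3 each). Between the groups it had a log2 fold change of -0.08 (SE 0.36; edgeR, adjusted p = 1), with a 95% interval from -0.94 to 0.78. Counts per gene do not separate the INK4 transcript from the ARF transcript, which share exons. The antisense gene CDKN2B-AS1, which shares 341 bp of exons with CDKN2A, had 27 to 67 counts per library.

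CDKN1B (ENSG00000111276; chromosome 12, 12715058 to 12722371, plus strand) was at 14.3, 15.8 and 16.3 FPKM with EGLN3, against 16.7, 16.9 and 14.8 FPKM in controls. Its highest library was 1.19 times its lowest in CPM, the smallest span of the 10. Its log2 fold change was -0.07 (SE 0.13; edgeR, adjusted p = 1), with a 95% interval of 0.769 to 1.18 times the control level.

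RB1 and E2F1 differed between libraries in opposite directions and overlapped between groups. RB1 (ENSG00000139687; chromosome 13, 48303726 to 48599436, plus strand), which encodes the pocket protein that holds E2F factors, was at 6.41, 10.3 and 12.6 FPKM with EGLN3, against 10.8, 7.95 and 7.64 FPKM in controls. RB1 had a log2 fold change of 0.15 (SE 0.28; edgeR, adjusted p = 1), with a 95% interval from -0.52 to 0.82. E2F1 (ENSG00000101412; chromosome 20, 33675683 to 33686404, minus strand) was at 62.2, 44 and 38.6 FPKM with EGLN3, against 49.7, 56.7 and 62.9 FPKM in controls. EGLN3 replicates 2 and 3 were below every control and EGLN3 replicate 1 was close to the highest control. For E2F1 it was -0.23 (SE 0.20; edgeR, adjusted p = 1), with a 95% interval from -0.72 to 0.26. The FPKM ratio of E2F1 to RB1, formed after the levels were seen, ran from 3.06 to 9.72 among EGLN3 libraries and from 4.6 to 8.23 among controls.

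By mean FPKM over the 6 libraries the order was CCND1 at 96.4, CDKN2A at 64.6, E2F1 at 52.4, CDK4 at 30.3, CDKN1B at 15.8, CCND3 at 13.6, CCNE1 at 9.56, RB1 at 9.29, CDK6 at 7.26 and CCNE2 at 2.22. The ranges over libraries did not overlap at 3 steps of this order: E2F1 above CDK4, CDK4 above CDKN1B, and CDK6 above CCNE2. CCNE1 and RB1 changed places between libraries, with CCNE1 above RB1 in 3 of 6. CDKN1B was above CCND3 in 4 of 6. At the top of the order, CCND1 was above CDKN2A in 5 of 6 libraries, with CDKN2A higher in EGLN3 replicate 1, and CDKN2A was above E2F1 in 5 of 6. These are levels of transcripts per length, not amounts of protein.

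**Figure D2:**
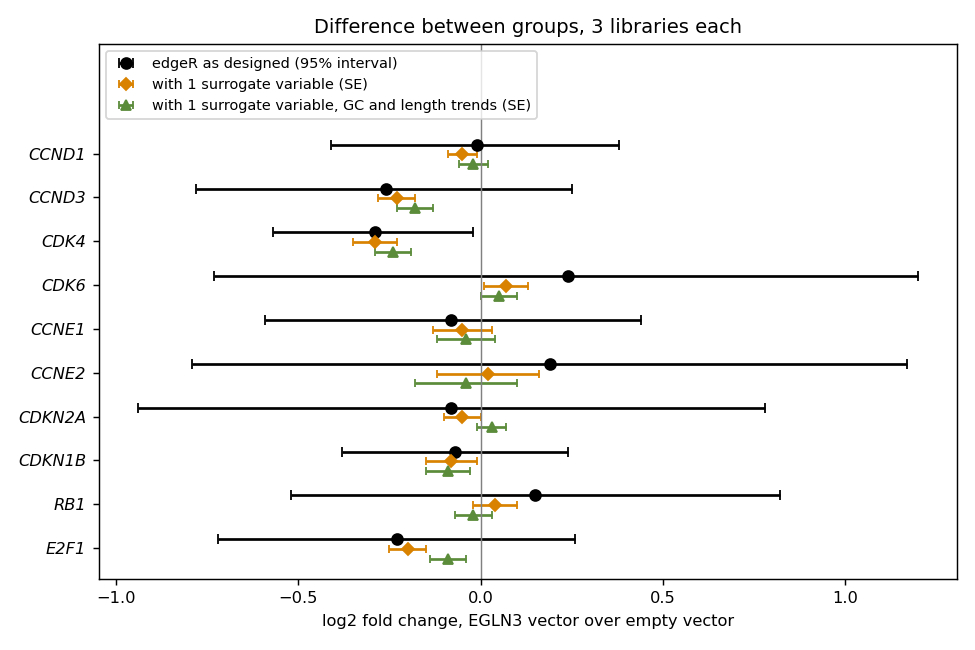
Log2 fold change of each gene, EGLN3 vector over empty vector, from edgeR on all tested genes with its 95% interval (black), and with its SE from 2 fits that add a surrogate variable (orange) and also GC and length trends (green). In the black points the interval of CDK4 alone lies below 0, from -0.57 to -0.02.

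The 8 members that followed the first axis split the libraries in one and the same way. CCND3, CCNE1, CDKN2A and E2F1 were higher in EGLN3 replicate 1 and control replicates 2 and 3 than in EGLN3 replicates 2 and 3 and control replicate 1, and CCND1, CDK6, CCNE2 and RB1 were lower. Of all tested genes, 57.5% split the libraries so in either direction, 28.5% in the first and 28.9% in the second, so 8 of 10 is not far from the background. CDK4 and CDKN1B did not follow that split.

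The span between libraries was widest for CCNE2, CDK6 and CDKN2A, whose highest library was 2.85, 2.68 and 2.29 times the lowest in CPM. Genes higher in EGLN3 replicate 1 and control replicates 2 and 3 had a median exon length of 3094 bp and a median GC content of 55.1% in their longest transcript, and genes lower there had 6918 bp and 43.5%. Among members lower there, CDK6, CCNE2 and RB1 had a GC content of 39.5%, 36.9% and 37.3% and CCND1 had 50.3%. Among members higher there, CDKN2A and E2F1 had 61.4% and 62.5%, CCND3 had 56.2% and CCNE1 had 52.9%. Exon lengths of the members did not separate the sides. CDK6, RB1, CCND1 and CCNE2, lower there, had 12260, 6452, 4830 and 4397 bp. CCND3, CDKN2A, CCNE1 and E2F1, higher there, had 5802, 4329, 2550 and 2503 bp. In a fit that removed each library's trends on GC content and length, with no surrogate variable, the log2 fold change was 0.08 (SE 0.19) for CDK6, 0.00 (SE 0.15) for RB1 and -0.10 (SE 0.08) for E2F1, against 0.24, 0.15 and -0.23 without that step. CCND3, CCNE1 and CCNE2 were at -0.19, -0.04 and 0.05 in that fit, against -0.26, -0.08 and 0.19. CCND1 and CDKN1B stayed at -0.01 and -0.07, and CDKN2A changed sign, at 0.03 against -0.08. CDK4 was at -0.24 (SE 0.11) in that fit, and 0 members were called (edgeR, adjusted p = 1 for each). The cause of the axis was not tested. EGLN3 replicate 1, at one end of the axis, also held the least EGLN3 of its group.

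**Figure D3:**
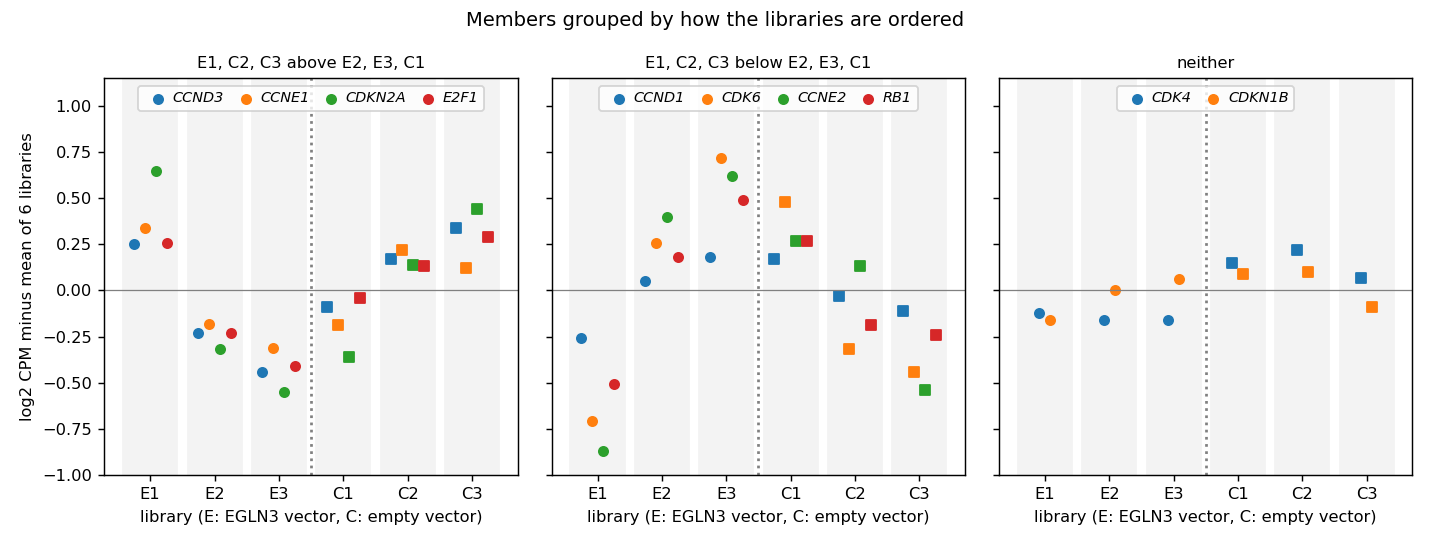
Log2 CPM of each member minus its mean over the 6 libraries. EGLN3 libraries are circles (E1 to E3) and empty-vector libraries are squares (C1 to C3). Members are placed in panels by how they split the libraries. CCND3, CCNE1, CDKN2A and E2F1 are high in E1, C2 and C3, CCND1, CDK6, CCNE2 and RB1 are low there, and CDK4 is below 0 in each EGLN3 library and above 0 in each control.

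When 1 surrogate variable was added to the model to take up this axis, CDK4, CCND3 and E2F1 were called lower, where 3.46% of all tested genes were called lower and 4.53% called in either direction. Their log2 fold changes were -0.29 (SE 0.06), -0.23 (SE 0.05) and -0.20 (SE 0.05), with edgeR adjusted p = 0.0031, 0.015 and 0.022. When each library's trends on GC content and gene length were also removed, CDK4 was the 1 member called, at -0.24 (SE 0.05; edgeR, adjusted p = 0.017), where 0.585% of all tested genes were called lower and 0.928% in either direction. CCND3 and E2F1 were then at -0.18 (SE 0.05) and -0.09 (SE 0.05), with edgeR adjusted p = 0.089 and 0.41. With a term for each library's sign on the same axis in place of the surrogate variable, 0 members were called: CDK4 was at -0.29 (SE 0.09), CCND3 at -0.13 (SE 0.10) and E2F1 at -0.11 (SE 0.10), with edgeR adjusted p = 0.44, 0.69 and 0.72. The surrogate variable comes from the libraries it corrects and enters the model without error, so these SEs and p-values may be too small. In the fits with a surrogate variable, CCND1, CDK6, CCNE1, CCNE2, CDKN2A, CDKN1B and RB1 lay between -0.09 and 0.07 on the log2 scale. With the term for sign instead, these members ran from -0.17 for CCNE2 to 0.15 for CDKN2A.

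Without EGLN3 replicate 1, the library with the least EGLN3 of its group, 3 members had an unadjusted p under 0.05, where 8.74% of all tested genes had one. CCND3 was at a log2 fold change of -0.47 (SE 0.17), CDK4 at -0.30 (SE 0.12) and E2F1 at -0.44 (SE 0.15), each with an edgeR adjusted p of 0.48. This was the fit with the lowest values of CCND3 and E2F1 among the 6 that left out 1 library, in which CCND3 ran from -0.47 to -0.13 and E2F1 from -0.44 to -0.10, both nearest to 0 without EGLN3 replicate 3. The 2 libraries left with EGLN3 lie on the same side of the first axis as control replicate 1.

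Other genes of G1 control were read from 8 lists holding 114 genes, of which 111 were tested. None of the 111 passed over all genes (edgeR, 0 called and 0 with an unadjusted p under 0.05; 1.11% of all tested genes had such a p). Their median log2 fold change was -0.04, with 65 lower and 46 higher, beside a median of 0.01 over all tested genes, of which 47.8% were lower.

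Genes of DNA replication that E2F factors control were the list with the largest share of its genes on one side. Of 29 listed, 28 were tested and 24 were lower with EGLN3, with a median log2 fold change of -0.09 and 0 called. Of the 111 tested genes of the 8 lists, 1 did not overlap between groups, against 6.26% of all tested genes in either direction and 3.62% lower. This was MCM3, a subunit of the replicative helicase, at 36.9, 40.5 and 39.2 FPKM with EGLN3 and 45.3, 44.9 and 42.1 FPKM in controls. Its log2 fold change was -0.19 (SE 0.12), and those of the helicase subunits MCM5 and MCM7 were -0.19 (SE 0.13) and -0.29 (SE 0.18), each with an edgeR adjusted p of 1. PCNA, the sliding clamp of DNA polymerase, was the most abundant gene of the list at 194 ± 27.3 FPKM with EGLN3 and 206 ± 22.9 FPKM in controls (SD, n = 3 each). With the surrogate variable, 8 genes of the 8 lists were called lower, 6 of them E2F targets (MCM3, MCM5, MCM7, POLE, TK1 and UHRF1) beside MYBL2 and FDXR, and SKP1 was called higher. Over all tested genes that fit called 544 lower, 3.46%, and 169 higher. With GC and length trends removed as well, MCM7 and UHRF1 were called lower and 0 list genes higher, where 0.585% of all tested genes were called lower and 0.928% in either direction.

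The further inhibitors of cyclin-dependent kinases showed 0 calls among 5 tested. CDKN2B, the INK4 neighbour of CDKN2A, was at 10.6, 13.1 and 12.9 FPKM with EGLN3, against 12.4, 10.1 and 11 FPKM in controls, with a log2 fold change of 0.12 (SE 0.15). CDKN2D and CDKN2C, the INK4 inhibitors p19 and p18, were at -0.31 (SE 0.25) and -0.20 (SE 0.20). CDKN1A, the p53-responsive inhibitor p21, averaged 10.5 ± 2.24 FPKM with EGLN3 and 10.6 ± 1.42 FPKM in controls (SD, n = 3 each). Each of these overlapped between groups.

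Partners of RB and E2F overlapped between groups too. Of 11 other pocket proteins, E2F and DP factors, 8 were higher and 3 lower, with a median of 0.04 and 0 called. TFDP1, the DNA-binding partner of E2F factors, was the most abundant, at 63.9 ± 5.51 FPKM with EGLN3 and 65 ± 2.11 FPKM in controls (SD, n = 3 each). Of the 12 genes of the DREAM complex and RB cofactors, 8 were higher and 4 lower, with a median of 0.03 and 0 called. MYBL2, the B-MYB factor of late S phase, was at 68.2, 52.3 and 49.5 FPKM with EGLN3, against 59.9, 70.6 and 70.2 FPKM in controls, with a log2 fold change of -0.24 (SE 0.16).

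Of 11 tested further cyclins, kinases and cofactors of G1 and S phase, 8 were lower, with a median of -0.06 and 0 called. CDC37, the chaperone partner that loads CDK4 onto HSP90, was at 129, 84.4 and 73.7 FPKM with EGLN3, against 88.3, 112 and 118 FPKM in controls, and followed the first axis. CCNA2, cyclin A2, was at -0.10 (SE 0.14). Of 15 ubiquitin ligase components and kinases that control turnover of G1 proteins, 9 were higher, with a median of 0.05 and 0 called. SKP1, the adaptor of SCF ligases, was at 25.8, 15.6 and 14.6 FPKM with EGLN3, against 11.7, 16 and 19.8 FPKM in controls, a log2 fold change of 0.23 (SE 0.29). Of 14 genes of the ARF and p53 arm, 8 were lower, with a median of -0.03 and 0 called. Of 16 mitogen-driven regulators of cyclin D, 9 were lower, with a median of 0.00 and 0 called, and ERBB2 averaged 872 ± 49.9 FPKM with EGLN3 and 961 ± 58.4 FPKM in controls (SD, n = 3 each; log2 fold change -0.14, SE 0.15).

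**Figure D4:**
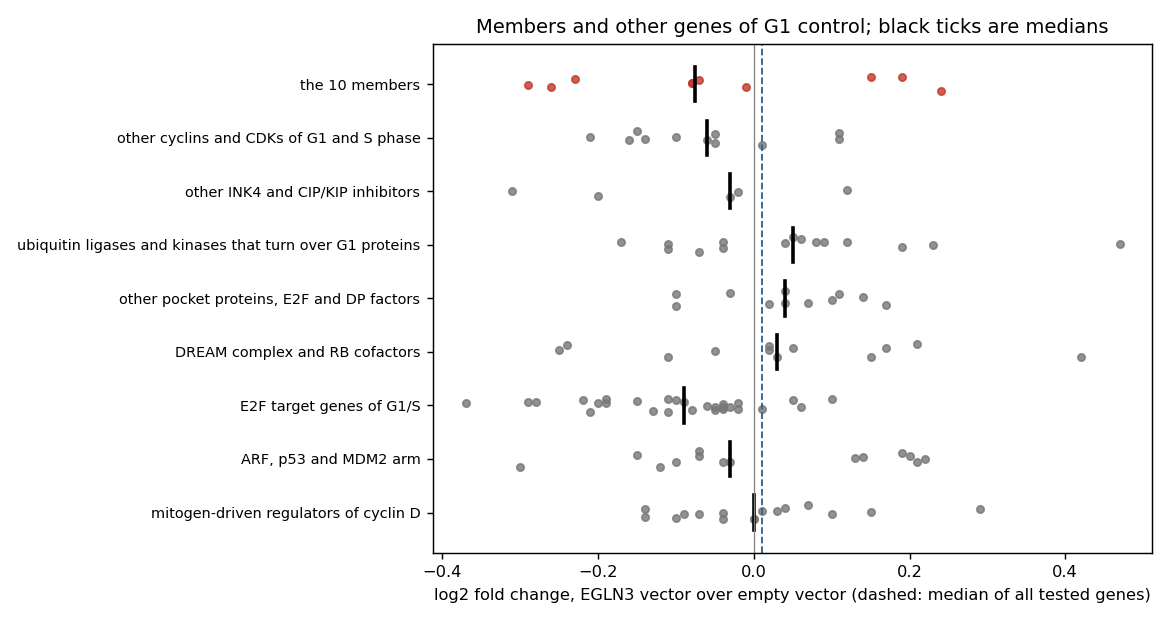
Log2 fold change, EGLN3 vector over empty vector, of the 10 members (red) and of the tested genes of each list (grey), with medians as black ticks and the median of all tested genes, 0.01, as a dashed line. The E2F target genes have the lowest list median, -0.09, with 24 of 28 below 0.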

How the data were processed

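Per the labels' protocols, Trizol was used to extract total RNA, which was sequenced after Illumina library preparation. The deposited gene counts are whole numbers with no scaling, and the deposited FPKM values equal that count over gene length and over a single factor for each library. Per the submitters' processing notes, the tools were DESeq2 1.20.0, featureCounts 1.5.0-p3 and HISAT2 2.0.5 and the build hg38, with no role stated. The annotation release and any use of strand were not given in the sources used here. Spans of the members equal those of GENCODE 29, from which exon overlaps and GC content were taken.

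In R 4.3.3, edgeR 4.0.16 was used with filterByExpr, TMM factors and its robust quasi-likelihood test, with group as the one term. Benjamini-Hochberg adjustment ran over all tested genes, with a call at 0.05. The SE is the log2 fold change divided by the square root of F, and log2 CPM used a prior count of 2. Levels are compared between genes in FPKM only. Library depth makes 1 count worth 0.0596 to 0.066 CPM. Libraries within a group differed by a chi-square of 8.07 to 104 per degree of freedom, beyond counting noise, which does not show that they are separate cultures. The titles number the libraries as replicates, and each entered as 1 replicate.

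The members and lists were chosen with earlier results of these data known. Genes named were EGLN3, the members, and per list up to 3 with the smallest p and up to 3 with the highest FPKM. Per member, up to 3 of the 3 protein-coding genes of at least 1 CPM with the most similar pattern were also named. CLDN18, TFF1, TSPAN31, INTS8, CDKN2B-AS1, CCND2, POLE, UHRF1 and FDXR were named after their values were seen. Alternatives were RLE scaling, other filters, DESeq2 1.42.0, limma-voom and log2 FPKM with limma 3.58.1, a replicate block, 1 surrogate variable (sva 3.50.0) and leaving out each library. Fits with GC and length trends (splines, 5 degrees of freedom) or with a term for each library's sign on that first axis were added after the data had been seen. The procedure was tested on simulated counts, whose results are not reported here.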

Additional observations from a re-analysis of the deposited data

How the results depend on the processing

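Over 19 alternatives, 165 values of the members kept their direction and side of the threshold, 4 became calls and 21 changed sign. CDK4, CCND3 and E2F1 were lower in all 19. Members called were 3 with 1 surrogate variable and 1 with GC and length trends as well, and 0 in the other 17. Genes called over all genes were 1 as reported, 713 and 146 in those 2 fits, 0 with limma-voom, with the replicate block and with limma on log2(FPKM + 1) with and without a filter, and 0 to 1 without 1 library; list genes called were 0, 9 and 2. The same-numbered libraries were anticorrelated in their deviations (-0.793, -0.176 and -0.674). These deviations share the first axis, with 70% of the variance, so they cannot show whether the numbers pair the libraries. The replicate block moved the calls to 0, with 23 genes at an unadjusted p under 0.05.

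The members that changed sign were not called in any fit. Without 1 library the log2 fold changes ran from -0.11 to 0.11 for CCND1, -0.11 to 0.58 for CDK6, -0.29 to 0.05 for CCNE1, -0.09 to 0.54 for CCNE2, -0.52 to 0.14 for CDKN2A, -0.13 to 0.00 for CDKN1B and -0.09 to 0.39 for RB1. With a term for each library's sign on the first axis, CDK6 was at -0.15, CCNE1 at 0.06, CCNE2 at -0.17, CDKN2A at 0.15 and RB1 at -0.10. With the surrogate variable and both trends, CCNE2 was at -0.04, CDKN2A at 0.03 and RB1 at -0.02, and CDKN2A was at 0.03 with the trends alone. The cause was not tested. At 76 to 229 counts per library, CCNE2 is the member that depth limits most.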

Other observations

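Among 12266 protein-coding genes of at least 1 CPM, the 3 whose library-centred log2 CPM lay closest to CDK4 were PLCB3, DDX54 and GPRIN1, with root mean square differences of 0.027, 0.032 and 0.034 over 6 libraries. Those closest to E2F1 were LTBP4, ZNF865 and OAF, and LTBP4 and OAF were also the 2 closest to CCND3. Those closest to RB1 were ITCH, BRIP1 and SH3D19, those closest to CCND1 were SGPL1, HOXB3 and HNRNPU, and those closest to CDKN1B were HNRNPR, PAPSS1 and TPX2. The closest genes were GREB1L for CDK6, KRT7 for CCNE1, BORA for CCNE2 and GNB2 for CDKN2A. The points share the 6 libraries and their first axis.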
